A study of Mus musculus with 12 samples.

Results

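The genes described here are S100a1, S100a4, S100a6, S100a10, S100a11, Anxa1, Anxa2, Anxa5, Lgals1 and Vim, 10 genes of calcium-binding, membrane-binding and sugar-binding proteins and of 1 filament protein, out of 12394 genes that have a probe set of their own in the deposited table. They were listed by symbol and chosen by measured values in part, since S100a4 is higher with GW8510 in the alpha line and Anxa2 in the beta line. Every value that sets GW8510 against DMSO is therefore given for these 10 genes as a description, with no p. A probe set is a group of short probes whose brightness is combined into 1 value, and 9 of the 10 genes have at least 1 that lists no other symbol, 16 in all. The only probe set that lists S100a11 also lists the pseudogenes S100a11-ps and Gm12854, so no value here is attributed to S100a11.

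S100 proteins are small proteins, most of which bind calcium through EF-hand loops and then grip a target protein. Annexins bind acidic phospholipids of membranes when calcium is present, and S100a10 with Anxa2, S100a11 with Anxa1 and S100a6 with several annexins are known S100 and annexin complexes. Calcium entry is the trigger of hormone release in islet cells, and annexins have been studied there and in other secretory cells as calcium-dependent organisers of membranes. Galectins bind beta-galactosides on glycoproteins, and vimentin, the product of Vim, is the intermediate filament protein of mesenchymal cells.

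Cells of 2 mouse lines were treated for 5 days with 3.3 µM GW8510, described as an inhibitor of the cyclin-dependent kinase CDK2, in 0.1% DMSO, or with 0.1% DMSO alone. The groups are aTC1 with GW8510, aTC1 with DMSO, bTC3 with GW8510 and bTC3 with DMSO, with 3 arrays each that the labels call biological replicates. Both lines come from islet tumours of mice with a transgene for the SV40 large T antigen, driven by the glucagon promoter for aTC1 and by the insulin promoter for bTC3, so every group carries that oncogene and each cell type is represented by 1 line. The labels give neither the clone of aTC1 nor the strain or age of the mice of origin, and on 4 treated arrays 1 label field names the compound GW8511 or GW8512 where all others say GW8510.

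RNA was read on Affymetrix Mouse Genome arrays, and the values are linear intensities that lie between 20 and 20000, the lower and upper bounds of the table. A log2 fold change of 1 is a doubling of intensity. Median intensities lay between 173.7 and 182.0 on 11 arrays and at 199.9 on bTC3 GW8510 replicate 3, which stands apart from the rest. Fewest probe sets were at the lower bound on aTC1 GW8510 replicate 1, with 703, and on bTC3 GW8510 replicate 3, with 739. The other arrays had between 951 and 1109. Within each group the lowest Pearson r between arrays, across probe sets, was between 0.994 and 0.998. Of the 4 alpha-cell markers measured, 3 were higher and 1, Ttr, lower in aTC1 with DMSO than in bTC3 with DMSO. All 5 beta-cell markers were lower. Of all probe sets, 29.1% were higher and 25.3% lower at an adjusted p under 0.05 by limma. Gcg, the glucagon gene, was 1 of the 3, at the upper bound of 20000 in aTC1 with DMSO. It averaged 6420 ± 367 in bTC3 with DMSO (SD, n = 3), so its difference is a lower limit. Irx1, a transcription factor of alpha cells, averaged 2084 ± 86.4 in aTC1 with DMSO and 28.2 ± 5.30 in bTC3 with DMSO, while Pdx1, a transcription factor of beta cells, averaged 70.8 ± 4.73 and 3276 ± 114 in the same groups (SD, n = 3 each). The lists hold 8 markers each, and those measured have a probe set of their own. By the maker's rule a name ending in _a_at marks probes shared by transcripts of 1 gene, _s_at probes that may be shared by similar genes, and _x_at probes that may bind unrelated RNA.

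S100a4, S100a6 and S100a10 stood much higher with GW8510 in aTC1, and less so in bTC3. S100a4 binds nonmuscle myosin and is known from motile cells. Its probe set 1424542_at read 2945, 2783 and 2952 in aTC1 with GW8510, against 287, 277 and 286 in aTC1 with DMSO. The same probe set read 1643, 1412 and 1757 in bTC3 with GW8510, against 929, 841 and 970.2 in bTC3 with DMSO. No 2 of these 4 groups overlapped, and the order was aTC1 with GW8510, bTC3 with GW8510, bTC3 with DMSO and aTC1 with DMSO. The difference was 10.2-fold in aTC1 (log2 fold change 3.35, SE 0.08) and 1.75-fold in bTC3 (log2 fold change 0.81, SE 0.08), where it was 0.74 without bTC3 GW8510 replicate 3. As bulk RNA was read, more RNA per cell and more cells that hold the RNA cannot be told apart here or in any result below.

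S100a6, or calcyclin, lies near S100a4 on mouse chromosome 3 with S100a5 between them. Its probe set 1421375_a_at read 298, 291 and 535 in aTC1 with GW8510, against 47.7, 42.7 and 47.9 in aTC1 with DMSO. In bTC3 it read 70.5, 67.6 and 97.1 with GW8510, against 38.1, 36.4 and 36.6 with DMSO. All treated arrays were above all DMSO arrays in each line, and replicate 3 was the high array of both treated groups. The log2 fold change was 2.96 (SE 0.20) in aTC1 and 1.06 (SE 0.20) in bTC3. Without replicate 3 of the treated group it was 2.68 in aTC1 and 0.90 in bTC3.

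S100a10, or p11, does not itself need calcium and holds Anxa2 in a complex at the plasma membrane. Its probe set 1416762_at read 1486, 1524 and 1597 in aTC1 with GW8510, against 273, 254 and 259 in aTC1 with DMSO. The bTC3 arrays read 133, 123 and 154 with GW8510, against 98.5, 107 and 122 with DMSO. The treated aTC1 arrays lay far above every other array, whereas in bTC3 the lowest treated array was only just above the highest DMSO array. The ratio was 5.86-fold in aTC1 (log2 fold change 2.55, SE 0.09) and 1.25-fold in bTC3 (log2 fold change 0.32, SE 0.09). Without bTC3 GW8510 replicate 3, the array with the high median, the bTC3 value was 0.23.

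The other S100a10 probe set, 1456642_x_at, gave the same direction in each line. It read 859.7, 833 and 1345 in aTC1 with GW8510, against 147, 139 and 141 with DMSO. Values in bTC3 were 88.2, 97.3 and 103 with GW8510, against 51.2, 71.2 and 65.7 with DMSO. Its log2 fold changes were 2.80 (SE 0.17) and 0.63 (SE 0.17) for aTC1 and bTC3. Its replicate 3 in treated aTC1 was far above the other arrays of that group, which was not so for 1416762_at on the same array, and without it the aTC1 value was 2.57.

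S100a1, known best from heart muscle where it acts on calcium cycling, went opposite ways in the lines. Its probe set 1419814_s_at read 947, 1096 and 1025 in aTC1 with GW8510, against 572, 616 and 639.8 in aTC1 with DMSO. For bTC3 it gave 792, 799 and 827 with GW8510, against 1014, 951 and 1017 with DMSO. The treated arrays were thus all above the DMSO arrays in aTC1 and all below them in bTC3, with log2 fold changes of 0.75 (SE 0.07) and -0.30 (SE 0.07). Of the 4 groups, only aTC1 with GW8510 and bTC3 with DMSO overlapped.

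The other S100a1 probe set, 1417421_at, had the same directions. It read 404, 411 and 413 in aTC1 with GW8510, against 270.2, 312 and 338 with DMSO. In bTC3 it read 375, 376 and 392 with GW8510, against 438, 446 and 479 with DMSO. Its log2 fold changes were 0.42 (SE 0.08) in aTC1 and -0.26 (SE 0.08) in bTC3. The probe set shared by S100a11 and its pseudogenes, 1460351_at, was dim, with group means between 30.8 and 38.4.

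**Figure D1:**
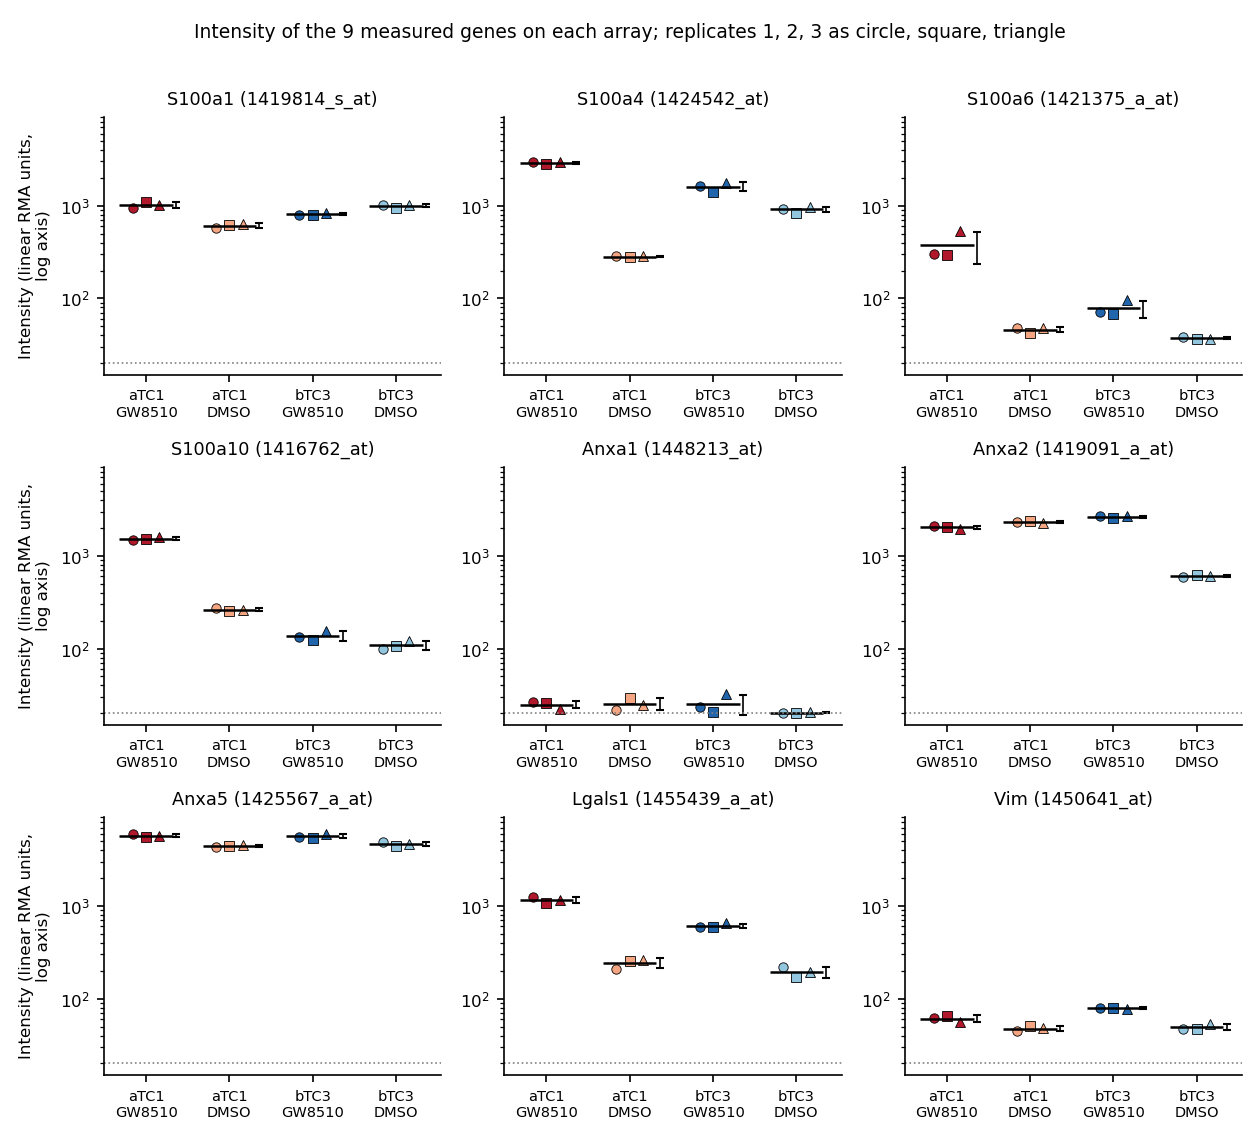
Intensity (vertical, log axis, linear RMA units) of the main probe set of each of the 9 measured genes on every array, by group, with the replicates as circles, squares and triangles, the group mean as a line and the SD as a bar beside it; the dotted line is the lower bound of 20. S100a4 stands at a mean of 2893 in aTC1 with GW8510 against 283 in aTC1 with DMSO, and Anxa2 at 2620 in bTC3 with GW8510 against 610.3 in bTC3 with DMSO.

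Anxa2, the partner of S100a10 and a membrane-binding annexin that also holds plasminogen and its activator at the cell surface, had the reverse pattern of lines. Its brightest probe set, 1419091_a_at, read 2665, 2538 and 2656 in bTC3 with GW8510, against 597, 628 and 605 in bTC3 with DMSO. In aTC1 it read 2072, 2061 and 1937 with GW8510, against 2300, 2389 and 2258 with DMSO. Untreated aTC1 thus already read nearly as high as treated bTC3, and treated aTC1 stood slightly below untreated aTC1 with no overlap. The ratio was 4.29-fold in bTC3 (log2 fold change 2.10, SE 0.05), and in aTC1 the log2 fold change was -0.20 (SE 0.05). The order of the 4 groups was bTC3 with GW8510, aTC1 with DMSO, aTC1 with GW8510 and bTC3 with DMSO, and no neighbours overlapped.

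The 3 probe sets of Anxa2 disagreed in size, and 1 of them also in direction. Probe set 1437692_x_at read 106, 106 and 126 in bTC3 with GW8510, against 74.3, 71.2 and 97.5 with DMSO. In aTC1 it read 117, 105 and 100.2 with GW8510, against 124, 130.0 and 118 with DMSO. It shared the directions of 1419091_a_at, with log2 fold changes of 0.49 (SE 0.12) in bTC3 and -0.21 (SE 0.12) in aTC1, and leaving out bTC3 GW8510 replicate 3 gave 0.41.

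Probe set 1437691_at set neither treated group apart from its DMSO group. It read 52.8, 43.3 and 67.0 in bTC3 with GW8510, against 47.4, 53.4 and 55.0 with DMSO, and 84.5, 68.0 and 62.3 in aTC1 with GW8510, against 61.2, 66.0 and 54.9 with DMSO. The groups overlapped in each line, and the log2 fold changes were 0.05 (SE 0.15) in bTC3 and 0.23 (SE 0.15) in aTC1. Without bTC3 GW8510 replicate 3 the bTC3 value turned to -0.12. The statements on Anxa2 therefore rest on 1419091_a_at, with a smaller difference in the same direction on 1437692_x_at.

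Promoter sequence is shown for S100a4 and S100a6, near neighbours that were both higher in treated aTC1, and for Anxa2, which was not. Of the 10 genes, 8 had a sequence in the set of RefSeq promoters used (GRCm38.p6), which lacked S100a10 and Lgals1. The 250 bases before the annotated start were searched on both strands, with overlaps allowed, for 6 motifs. These were the TATA box (TATAAA, in 12.4% of 32851 promoters of that length), the GC box (GGGCGG, 32.7%), the AP-1 site (TGANTCA, 6.75%), the E-box (CANNTG, 66.2%), the core of the antioxidant element (TGACNNNGC, 10.2%) and the p53 decamer (7.13%). Capitals mark the matches, and each line runs 5′ to 3′ up to the base before the start.
S100a4, chr3:90603520-90603769, plus strand: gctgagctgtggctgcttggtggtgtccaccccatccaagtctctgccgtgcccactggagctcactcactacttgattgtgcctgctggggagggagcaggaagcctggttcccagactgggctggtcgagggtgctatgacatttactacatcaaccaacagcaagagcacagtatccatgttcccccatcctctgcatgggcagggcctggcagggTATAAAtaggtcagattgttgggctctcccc
S100a6, chr3:90612644-90612893, plus strand: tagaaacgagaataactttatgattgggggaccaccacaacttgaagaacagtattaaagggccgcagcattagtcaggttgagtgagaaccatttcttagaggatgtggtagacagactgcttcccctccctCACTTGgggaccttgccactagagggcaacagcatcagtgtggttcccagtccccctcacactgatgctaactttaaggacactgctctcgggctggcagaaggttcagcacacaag
Anxa2, chr9:69453433-69453682, plus strand: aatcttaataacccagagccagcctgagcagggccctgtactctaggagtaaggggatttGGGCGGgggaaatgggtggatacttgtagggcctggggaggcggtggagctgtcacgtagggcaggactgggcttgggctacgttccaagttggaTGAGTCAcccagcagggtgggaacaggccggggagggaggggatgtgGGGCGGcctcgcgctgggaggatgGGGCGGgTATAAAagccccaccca
The S100a4 sequence holds 1 TATA box, which begins 31 bases before the start, and that of S100a6 holds 1 E-box at 117 bases and no TATA box, so these windows share none of the 6 motifs. The Anxa2 sequence holds a TATA box at 17 bases, GC boxes at 190, 48 and 24 bases, and an AP-1 site at 95 bases. Of the 8 promoters, the p53 decamer was in that of Anxa1 alone, at 136 bases. A match of letters is a description and no evidence of binding.

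Anxa5, which binds phosphatidylserine and is the common stain of dying cells, was bright in all groups and slightly higher with GW8510. Probe set 1425567_a_at read 5997, 5550 and 5671 in aTC1 with GW8510, against 4369, 4431 and 4533 with DMSO. The bTC3 values were 5588, 5419 and 5932 with GW8510, against 4867, 4372 and 4693 with DMSO. The treated arrays lay above the DMSO arrays in each line, by log2 fold changes of 0.37 (SE 0.06) and 0.28 (SE 0.06) for aTC1 and bTC3, while the treated groups of the lines overlapped each other, as did the untreated ones.

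Anxa1, an annexin induced by glucocorticoids in many cells and a ligand of formyl peptide receptors, was at or near the lower bound in every group. Its values on 1448213_at ran between 22.4 and 26.4 in aTC1 with GW8510, 21.9 and 29.3 in aTC1 with DMSO, 20.5 and 32.3 in bTC3 with GW8510, and 20 and 20.7 in bTC3 with DMSO. Treated and DMSO arrays overlapped in both lines. The log2 fold changes of -0.02 and 0.29 (SE 0.15 each) are differences between readings close to the bound, and the second was 0.10 without bTC3 GW8510 replicate 3.

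Lgals1, or galectin-1, was higher with GW8510 in both lines on both of its probe sets. Probe set 1455439_a_at read 1245, 1072 and 1147 in aTC1 with GW8510, against 208, 256 and 263 in aTC1 with DMSO. Arrays of bTC3 read 592, 597 and 650.1 with GW8510, against 221, 169 and 194 with DMSO. The treated groups did not overlap any other group, and the untreated lines overlapped each other. The ratio was 4.78-fold in aTC1 (log2 fold change 2.26, SE 0.11) and 3.16-fold in bTC3 (log2 fold change 1.66, SE 0.11).

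On 1419573_a_at, Lgals1 read 1053, 1043 and 957 in aTC1 with GW8510, against 153, 158 and 155 with DMSO. In bTC3 it read 351, 378 and 403 with GW8510, against 95.4, 81.4 and 84.5 with DMSO. All 4 groups were apart on this probe set. The log2 fold changes were 2.71 (SE 0.07) in aTC1 and 2.12 (SE 0.07) in bTC3, so that the difference between the lines was 0.60 here and 0.59 on the other probe set.

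Vim was dim on all 3 of its probe sets. Probe set 1450641_at read 61.9, 65.5 and 55.6 in aTC1 with GW8510, against 44.4, 50.4 and 47.8 with DMSO. Its bTC3 readings were 79.2, 80.1 and 77.0 with GW8510, against 47.4, 47.4 and 53.3 with DMSO. Its treated arrays were above the DMSO arrays in each line, with log2 fold changes of 0.36 (SE 0.08) in aTC1 and 0.68 (SE 0.08) in bTC3. Probe set 1438118_x_at gave 0.22 and 0.51 (SE 0.08 each) at intensities between 31.7 and 53.3. Probe set 1456292_a_at read 20, the lower bound, throughout aTC1 and in bTC3 with DMSO, and its treated bTC3 arrays read 21.5, 23.9 and 24.3, at least 1.16-fold above the bound.

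**Figure D2:**
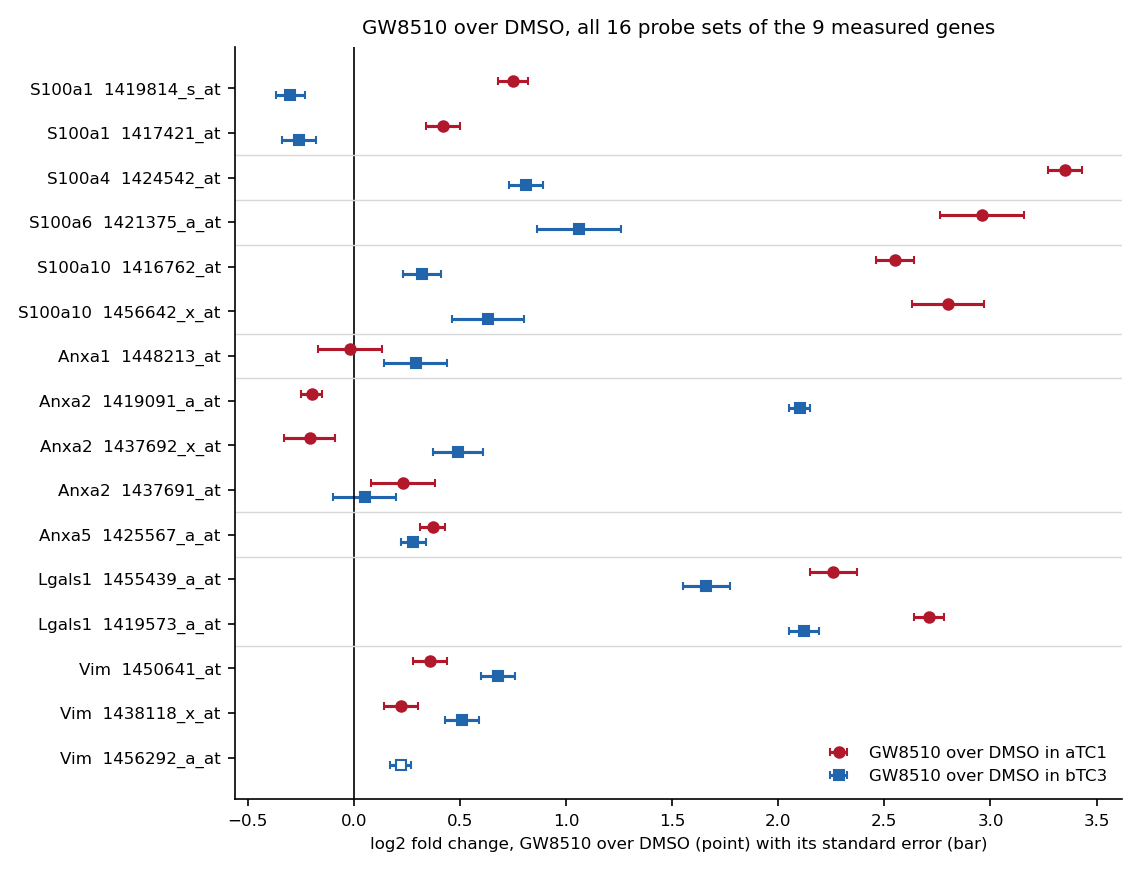
Log2 fold change of GW8510 over DMSO (horizontal) of all 16 probe sets, with its standard error as a bar, in aTC1 (circles) and bTC3 (squares); the open square is a lower limit, since the DMSO arrays were at the bound. S100a4 reaches 3.35 in aTC1, and the 3 probe sets of Anxa2 spread between 0.05 and 2.10 in bTC3.

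Counted over probe sets, 11 of 15 were higher and 1 lower in aTC1 with GW8510 at an adjusted p under 0.05 by limma with Benjamini-Hochberg adjustment, where 18.3% of all 22175 probe sets were higher and 20.2% lower, 38.4% together. Vim 1456292_a_at is left out of the 15. In bTC3, 12 of 16 were higher and 2 lower, where 18.0% of all probe sets were higher and 13.4% lower, 31.5% together. Treated and DMSO arrays did not overlap on 13 of 15 probe sets in aTC1 and 14 of 16 in bTC3, and on 49.1% and 43.6% of all probe sets. The difference between the lines passed for 8 probe sets upward and 3 downward of 16, where 10.5% of all probe sets passed upward and 14.8% downward, 25.3% together. These contrasts helped to choose the genes, so nothing is read from these counts. The median log2 fold change of the members was 0.42 in aTC1 and 0.50 in bTC3, beside 0.02 and 0.06 over all probe sets.

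Along mouse chromosome 3 the S100 genes lie in the order S100a1, S100a13, S100a14, S100a16, S100a3, S100a2, S100a4, S100a5, S100a6, S100a8, S100a9, S100a11 and S100a10 in the RefSeq annotation, with no value here for S100a2 and S100a11. For GW8510 over DMSO in aTC1, S100a3 had a log2 fold change of 2.11 (SE 0.14, adjusted p = 3.42e-07 by limma) and S100a13 of 1.68 (SE 0.09, adjusted p = 4.14e-08). S100a5, between S100a4 and S100a6, had -0.06 (SE 0.08) in aTC1. S100a14, S100a16, S100a8 and S100a9 had values between -0.07 and 0.11 there. In bTC3 the 2 largest were S100a3 at 2.27 (SE 0.14, adjusted p = 6.82e-07) and S100a6 at 1.06.

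**Figure D3:**
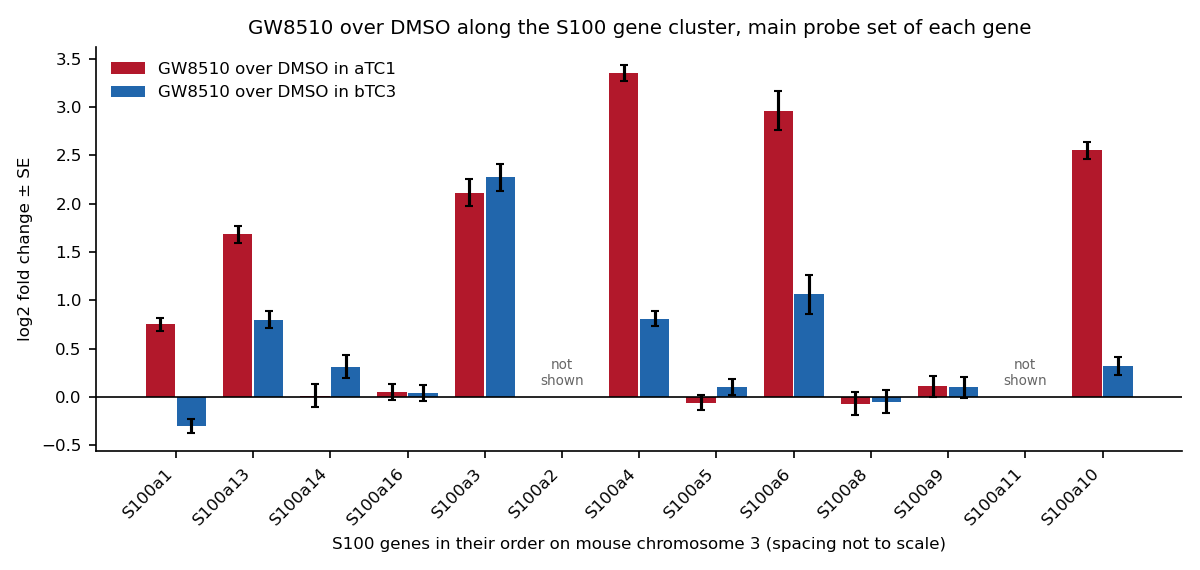
Log2 fold change of GW8510 over DMSO (vertical) with its standard error, in aTC1 (red, left bar) and bTC3 (blue, right bar), for the S100 genes in their order on chromosome 3, with equal spacing in place of distance; S100a2 and S100a11 are not shown. S100a4 at 3.35 and S100a6 at 2.96 in aTC1 stand on either side of S100a5 at -0.06.

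The untreated lines were compared for 7 of the 9 measured genes. S100a4 and Anxa2 are left out of the test because their DMSO arrays entered the choice of the genes. All members were listed with earlier results of these data known, so the p-values of the 7 genes are no fully independent test. Of the 11 probe sets of the 7 genes above the lower bound, 4 were higher and 2 lower in aTC1 than in bTC3, where 29.1% of all probe sets were higher and 25.3% lower. The share that passed was 54.5%, against 54.4% of all 22175, so it is that of the background. The arrays of the lines did not overlap on 7 of the 11, and on 64.5% of all probe sets. The median log2 difference was 0.30, beside 0.05 over all probe sets.

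S100a10 was higher in untreated aTC1 on both probe sets, with log2 fold changes of 1.27 (SE 0.09, adjusted p = 1.71e-07) and 1.19 (SE 0.17, adjusted p = 6.28e-05) over bTC3 by limma. On 1416762_at this was 262 ± 9.67 in aTC1 and 109 ± 11.8 in bTC3 (SD, n = 3 each). S100a1 was lower in untreated aTC1 on both probe sets, at 609 ± 34.5 against 994 ± 37.3 in bTC3 on 1419814_s_at (log2 fold change -0.71, SE 0.07, adjusted p = 1.66e-06) and with -0.57 (SE 0.08, adjusted p = 3.46e-05) on 1417421_at.

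For Lgals1 the 2 probe sets differed in how firmly the lines were apart. On 1419573_a_at untreated aTC1 was higher by 0.84 (SE 0.07, adjusted p = 9.11e-07). On 1455439_a_at the difference was 0.32 (SE 0.11, adjusted p = 0.0287) and the arrays of the lines overlapped. That call was lost without aTC1 DMSO replicate 2 (0.27) or 3 (0.26), without bTC3 DMSO replicate 2 (0.22) or 3 (0.32), and when only the DMSO arrays were fitted.

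S100a6 (0.32, SE 0.20, adjusted p = 0.226), Anxa1 (0.30, SE 0.15, adjusted p = 0.114), Anxa5 (-0.06, SE 0.06, adjusted p = 0.415) and the 2 Vim probe sets above the bound (-0.05 and -0.08) did not pass. As descriptions, untreated aTC1 had S100a4 at 283 ± 5.38 against 914 ± 65.7 in bTC3, a log2 fold change of -1.69, and Anxa2 1419091_a_at at 2316 ± 66.8 against 610.3 ± 16, a log2 fold change of 1.92. These comparisons share the DMSO arrays with those of GW8510 against DMSO. The other Anxa2 probe sets had 0.63 and 0.22.

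**Figure D4:**
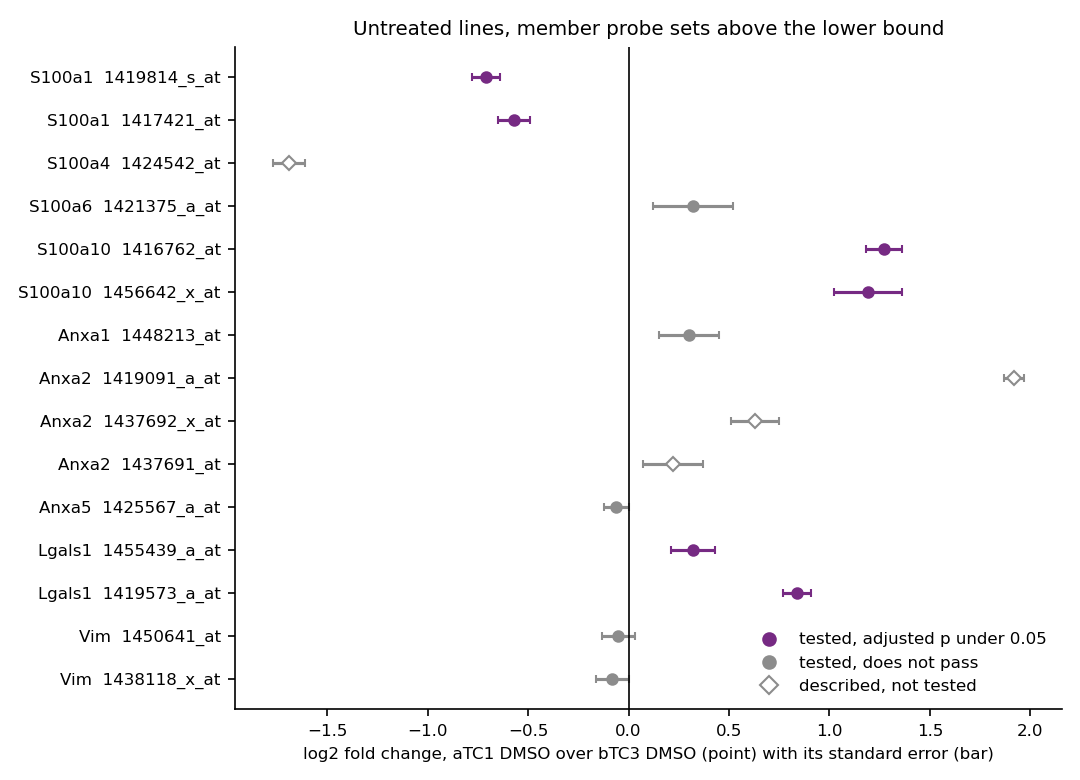
Log2 fold change of aTC1 with DMSO over bTC3 with DMSO (horizontal), with its standard error as a bar, for each probe set of the 9 genes that was above the lower bound; filled circles were tested and open diamonds (S100a4 and Anxa2) are described only. S100a10 at 1.27 and 1.19 and S100a1 at -0.71 and -0.57 lie on opposite sides of 0.

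Another 24 S100, annexin and galectin genes had 35 probe sets of their own. In aTC1, 9 of the 35 were higher with GW8510 and 0 lower, a share of 25.7% where 38.4% of all probe sets passed. In bTC3, 12 were higher and 1 lower, a share of 37.1% where 31.5% passed. The difference between the lines passed for 9 (25.7%), where 25.3% passed. Medians of the log2 fold change were 0.10 in aTC1 and 0.18 in bTC3, beside 0.02 and 0.06 over all probe sets. In bTC3 the count was 9, with 8 higher, without bTC3 GW8510 replicate 3, the array with the high median.

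In aTC1 the genes that rose were S100a3, S100a13, Anxa7, Anxa4, Lgals9 and Lgals8, and Anxa8 on the dimmer of its 2 probe sets (0.32, adjusted p = 0.0162), a call lost without any of 4 of the aTC1 arrays. S100a13, which takes part in the release of fibroblast growth factor from cells, averaged 1156 ± 46.8 with GW8510 and 360.0 ± 13.8 with DMSO. S100a3, known from the hair cuticle, averaged 93.3 ± 18.6 with GW8510 and 21.4 ± 1.44 with DMSO, where 1 of 3 arrays was at the lower bound. Anxa7, known for bringing secretory granules together, rose by 0.66 (SE 0.09, adjusted p = 6.26e-05) on 1416138_at, while its dimmer probe sets had 0.01 and 0.09 and did not pass. Lgals8, a galectin of damaged endosomes and lysosomes, rose by 0.59 (SE 0.06, adjusted p = 1.02e-05) and 0.52 (SE 0.10, adjusted p = 0.00107), and Lgals9 by 0.61 (SE 0.15, adjusted p = 0.00746).

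In bTC3 the 6 genes with the largest rises were Lgals2, S100a3, Anxa13, Lgals4, S100g and S100a13. Lgals2, a galectin of the gut lining, averaged 4648 ± 549 with GW8510 and 919.5 ± 133 with DMSO on 1417079_s_at (log2 fold change 2.34, SE 0.13, adjusted p = 3.01e-07). It averaged 2099 ± 359 with GW8510 and 554 ± 41.6 with DMSO on 1417078_at (log2 fold change 1.91, SE 0.14, adjusted p = 1.85e-06). Anxa13, an annexin of the gut lining, rose by 1.68 (SE 0.19, adjusted p = 4.69e-05), the gut galectin Lgals4 by 1.38 (SE 0.14, adjusted p = 1.68e-05) and S100g, the calcium carrier of the intestine, by 0.89 (SE 0.09, adjusted p = 2.37e-05). S100a13 rose by 0.80 (SE 0.09, adjusted p = 3.95e-05). The other probe sets that passed, with rises between 0.21 and 0.60, were those of Anxa7 (1), Lgals8 (2), Lgals3 (1) and Anxa8 (1), and without bTC3 GW8510 replicate 3 the last 4 of these did not pass.

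Lgals2, Anxa13, Lgals4 and S100g did not pass in aTC1, with log2 fold changes of 0.29 and 0.00 for the 2 probe sets of Lgals2, 0.10 for Anxa13, 0.16 for Lgals4 and 0.00 for S100g. The difference between the lines passed for each of them, at -2.06 and -1.91 for Lgals2, -1.59 for Anxa13, -1.22 for Lgals4 and -0.90 for S100g. Anxa4, an annexin of secretory epithelia, was the only gene with a fall, on 1 of its 2 probe sets. It averaged 1695 ± 126 with GW8510 and 2056 ± 97.7 with DMSO in bTC3 on 1421223_a_at (log2 fold change -0.28, SE 0.08, adjusted p = 0.0159). The other, 1424176_a_at, had -0.16 (SE 0.10, adjusted p = 0.242) with overlapping arrays. The fall was lost without bTC3 DMSO replicate 3 (-0.24) or bTC3 GW8510 replicate 2 (-0.22). In aTC1 probe set 1421223_a_at averaged 72.7 ± 6.10 with GW8510 and 55.5 ± 2.38 with DMSO, a rise of 0.39 (SE 0.08, adjusted p = 0.00165).

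**Figure D5:**
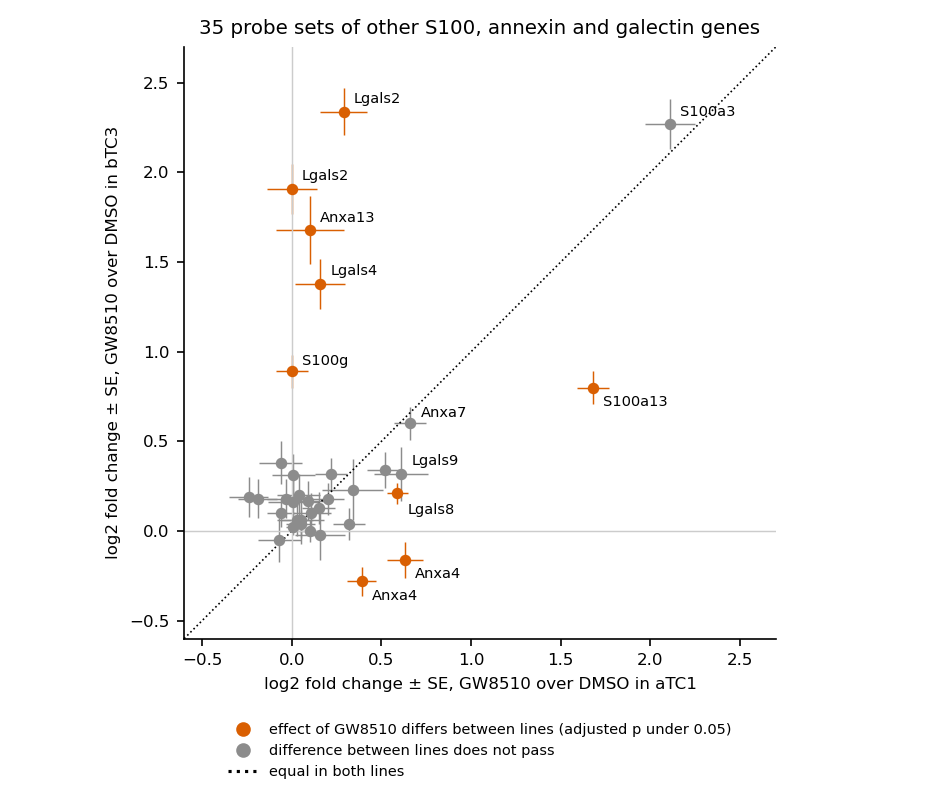
Log2 fold change of GW8510 over DMSO in aTC1 (horizontal) and in bTC3 (vertical) for the 35 probe sets of the other 24 S100, annexin and galectin genes, with standard errors as bars; orange marks probe sets whose difference between the lines passed the threshold. Lgals2 lies at 2.34 and 1.91 in bTC3 and at 0.29 and 0.00 in aTC1, while S100a3 lies near the line of equal change.

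Genes whose products are known partners of S100 proteins, annexins or galectins were read next, 13 of the 14 listed having a probe set. This list and the filament and mesenchymal lists below were chosen with earlier results of these data known. Their counts and p-values are therefore no independent test. In aTC1, 5 rose and 1 fell with GW8510 (46.2%, where 38.4% of all probe sets passed), and in bTC3, 5 rose and 0 fell (38.5%, where 31.5% passed). Lgals3bp, a glycoprotein that binds galectins, averaged 2359 in aTC1 with GW8510 and 862 with DMSO (log2 fold change 1.45, adjusted p = 3.07e-08), and in bTC3 it rose by 0.44 (adjusted p = 7.49e-04). In aTC1, Myh9, the nonmuscle myosin heavy chain that S100a4 binds, rose by 0.64 (adjusted p = 4.63e-06) and Sugt1, a cochaperone that S100 proteins bind, by 0.57 (adjusted p = 3.47e-05). Ahnak, a scaffold that binds the S100a10 and Anxa2 complex, fell by 0.70 in aTC1 on its brightest probe set (adjusted p = 1.48e-04), while 3 dimmer ones had -0.12, 0.02 and 0.04 and did not pass.

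Plat, the tissue plasminogen activator that Anxa2 holds at the cell surface, followed the pattern of Anxa2. It averaged 408 in bTC3 with GW8510 and 185 with DMSO, a rise of 1.14 (adjusted p = 3.17e-06), and 392 in aTC1 with GW8510 and 454 with DMSO (-0.22, adjusted p = 0.0782). Sugt1 and Itgb1, an integrin chain, also rose in bTC3, by 0.64 and 0.41. Over the 13 partners the median was 0.14 in aTC1 and 0.15 in bTC3, and 4 passed in bTC3 without GW8510 replicate 3.

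Vim is an intermediate filament gene, so 16 other genes of filaments and their linkers were read beside it. In aTC1, 6 rose and 3 fell with GW8510 (56.2%), and in bTC3, 6 rose and 1 fell (43.8%), where 38.4% and 31.5% of all probe sets passed. Krt7, a keratin of ducts, averaged 2252 in aTC1 with GW8510 and 848 with DMSO (log2 fold change 1.41, adjusted p = 7.12e-08), and rose by 0.82 in bTC3. Des and Plec, a muscle filament and a linker, rose by 0.67 and 0.52 in aTC1. On its other probe set, 1426732_at, Des averaged 63.6 ± 18.7 in aTC1 with GW8510 and 54.7 ± 1.42 with DMSO, with overlap. Nefl, a neurofilament, fell by 0.50 in aTC1 and rose by 0.57 in bTC3. Prph, a filament of peripheral neurons, rose by 0.98 in bTC3, and Lmnb1, a lamin, fell by 0.42 there. The other Prph probe sets differed less in bTC3. With GW8510 and DMSO they averaged 96 and 90.1 (1420256_x_at), 90.4 and 83.7 (1449796_at), and 56.2 and 46.8 (1449797_x_at). Medians of this list were 0.08 in aTC1 and 0.16 in bTC3. The list was read on 1 probe set per gene, and that choice mattered for Dsp, the desmosomal linker desmoplakin, as well. The probe set used, 1427610_at, had 0.08 in aTC1 (adjusted p = 0.642). The other 2 Dsp probe sets were named after their values were seen and are given with no p. They were higher in aTC1 with GW8510 by 2.98 (1435493_at) and 2.93 (1435494_s_at). The first averaged 206 ± 39.0 in aTC1 with GW8510 and 25.7 ± 1.25 in aTC1 with DMSO.

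Since S100a4 and Vim are widely used to mark mesenchymal cells, 17 other mesenchymal genes were counted. Most were dim, with a median of 65.2 for their mean intensities, beside array medians between 173.7 and 199.9. Changes of dim genes can be missed, so a low count cannot tell whether such genes were steady. In aTC1, where S100a4 was highest, 0 rose and 4 fell with GW8510 (23.5%, where 38.4% of all probe sets passed), and their median was -0.09. The 4 that fell were Zeb2 by 0.99 (adjusted p = 1.75e-04), Cdh2 by 0.97, Zeb1 by 0.92 (adjusted p = 4.09e-06) and Cd44 by 0.38, the last on 1452483_a_at, while 1423760_at had -0.03 and did not pass. Zeb1 and Zeb2 are repressors of epithelial genes, and Cdh2 is N-cadherin. In bTC3, 4 rose and 3 fell (41.2%, where 31.5% passed). Among them were Col1a2 with a rise of 0.90 and Zeb2 with one of 0.51, and Zeb1 and Snai2 with falls of 0.61 and 0.50. The other Zeb1 probe set, 1420243_at, was near the lower bound. With GW8510 and DMSO it averaged 24 and 24.7 in aTC1, and 23.5 and 22.5 in bTC3. On 1423110_at, Col1a2 averaged 41.7 in bTC3 with GW8510 and 31.4 with DMSO, a smaller rise. The Zeb2 call in bTC3 was lost without bTC3 DMSO replicate 3 (0.42) and without bTC3 GW8510 replicate 2 (0.48) or 3 (0.40). In aTC1, 7 passed in place of 4 with array weights (1 rise and 6 falls), and in bTC3, 5 passed in place of 7 without GW8510 replicate 3.

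Marker genes of other cell types were summed on each array. Fibroblast markers, all 8 measured and Lum at the lower bound on every array, summed to between 556 and 658 in aTC1 with GW8510, against 549 and 584 with DMSO. In bTC3 they summed to between 734 and 878 with GW8510, against 557 and 666 with DMSO. Col1a2 was the only 1 that passed there, where 31.5% of all probe sets passed. None passed in aTC1, where 38.4% of all probe sets passed. Of the 8 fibroblast markers, 4 are also among the mesenchymal genes above. Macrophage markers, also 8, summed to between 450.2 and 584 in aTC1 with GW8510, against 450.4 and 479 with DMSO, and to between 454 and 498 in bTC3 with GW8510, against 425 and 462 with DMSO. None of the macrophage markers passed in either line, beside the same shares of all probe sets. The 6 endothelial markers summed to between 602 and 769 in aTC1 with GW8510, against 746 and 824 with DMSO. In bTC3 they summed to between 859 and 1065 with GW8510, against 785 and 914 with DMSO. Only Egfl7 passed in aTC1 (16.7%), with 341 ± 19.5 with GW8510 and 489 ± 17.6 with DMSO on 1451428_x_at. The median log2 fold change of the 6 was 0.06 there, and none passed in bTC3.

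All 6 duct and acinar markers were measured, of which Krt7 and Cela1 rose in each line and the other 4 did not pass (33.3%, where 38.4% of all probe sets passed in aTC1 and 31.5% in bTC3). Their sum lay between 3266 and 3352 in aTC1 with GW8510, against 1627 and 1707 with DMSO, and between 818 and 857 in bTC3 with GW8510, against 579.6 and 657 with DMSO. Of the 4 alpha-cell markers, Ttr rose in aTC1, at 19884 ± 188 with GW8510 and 8351 ± 511 with DMSO (SD, n = 3 each). Irx1 and Irx2 fell there by 0.78 and 0.45 on the log2 scale, so 75% passed, where 38.4% of all probe sets did. Gcg read 20000, the upper bound, on every aTC1 array. The sum of the 4 markers lay between 42298 and 42576 in aTC1 with GW8510, against 31733 and 32826 with DMSO. It thus rose through Ttr alone and is capped by the bound. In bTC3, Gcg averaged 12041 ± 798 with GW8510 and 6420 ± 367 with DMSO. It was the only 1 of the 4 alpha-cell markers that passed there (25%, where 31.5% of all probe sets passed). Beta-cell markers summed to between 2927 and 3228 in aTC1 with GW8510, against 2315 and 2445 with DMSO. There 3 of 5 were higher and 0 lower (60%, where 38.4% of all probe sets passed). In bTC3, 2 of the beta-cell markers and Ttr were at the upper bound on every array, so sums over these lists cannot show a change of those genes there and are not given. The part of these shifts in the values of the S100, annexin and galectin genes was not tested.

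Genes whose levels ran most like those of S100a4 and of Anxa2 over the 12 arrays were named by Pearson r of the log2 values, among 3275 genes with group means at least 1 log2 unit apart. The arrays fall into 4 groups, so r reflects mostly the group means, and it is given with no p. For S100a4 they were Ctsd and Man2b1, both lysosomal enzymes (r = 0.992 each), Tmem43 (0.983), Cdk5r1 (0.980) and Atox1, a copper chaperone (0.978). Group means of Man2b1 were 3319 in aTC1 with GW8510, 438 in aTC1 with DMSO, 2123 in bTC3 with GW8510 and 1523 in bTC3 with DMSO. For Anxa2 they were Ptprd (0.985), Prmt3 (0.980), Plekho1 (0.965), Plat (0.963) and Tspan17 (0.961). Plat was thus named by this rule as well as by the list of partners, but both draw on these same arrays and are not independent.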

How the data were processed

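The authors deposited linear intensity values, which the submitters' processing notes credit to RMA with no version, for 22690 probe sets on 12 arrays. The lower bound of 20 and the upper bound of 20000 were read from the values. RMA subtracts background, is meant to make arrays comparable and summarizes the probes of each set. The medians of the deposited arrays still differed, between 173.7 and 199.9, so the arrays were not fully evened out. The bounds hide differences below or above them.

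Symbols came from the platform annotation, under which 20393 probe sets had 1 symbol, 691 several and 1542 none. The log2 of the intensity was fitted with limma 3.58.1 in R 4.3.3 (group means of all 12 arrays, contrasts, empirical Bayes) over 22175 probe sets, without 64 controls and 451 at a bound on all arrays. P-values were adjusted by Benjamini-Hochberg over all of them, with a threshold of 0.05. The script was tested on simulated data. The main probe set of a gene is the one with the highest mean log2 intensity over the 12 arrays, on which the list counts rest. Members and lists were chosen with earlier results of these data known. Named were all members, up to 6 other family genes per line, up to 4 genes per list and the 5 genes most like each of S100a4 and Anxa2. The number of arrays limits the precision. The labels call the replicates biological but do not say whether they were separate cultures, so p-values measure the spread between these arrays.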

Additional observations from a re-analysis of the deposited data

Results flagged for a closer look

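Among the other S100, annexin and galectin genes, 9 probe sets had an effect of GW8510 that differed between the lines in the limma test of the difference itself, where 25.3% of all probe sets did. The effect in aTC1 minus that in bTC3, as log2, was 0.89 for S100a13 (adjusted p = 2.96e-04), 0.80 for Anxa4 1424176_a_at (adjusted p = 0.00123), 0.67 for Anxa4 1421223_a_at (adjusted p = 8.58e-04) and 0.38 for Lgals8 1422662_at (adjusted p = 0.00688). It was -2.06 for Lgals2 1417079_s_at (adjusted p = 9.61e-06), -1.91 for Lgals2 1417078_at (adjusted p = 2.69e-05), -1.59 for Anxa13 (adjusted p = 0.00115), -1.22 for Lgals4 (adjusted p = 6.58e-04) and -0.90 for S100g (adjusted p = 3.83e-04).

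On 4 probe sets of S100a1 and Anxa2 every treated array lay on one side of the DMSO arrays in aTC1 and on the other side in bTC3, which is a description: these contrasts helped to choose the genes, so the difference was not tested independently of that choice. The log2 fold changes in aTC1 and bTC3 were 0.75 and -0.30 for S100a1 1419814_s_at, 0.42 and -0.26 for S100a1 1417421_at, -0.20 and 2.10 for Anxa2 1419091_a_at, and -0.21 and 0.49 for Anxa2 1437692_x_at. The fitted effects in aTC1 minus those in bTC3 were 1.05 and 0.68 for S100a1 and -2.30 and -0.70 for Anxa2, in the same order.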

How the results depend on the processing

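The alternatives were another quantile normalization, centring on array medians, 1 probe set per gene, leaving out the dimmest 25% of probe sets, fitting only the groups compared, a trended robust spread, array weights, a pseudocount of 16, the replicate number as a block and leaving out single arrays; for the 3 related lists they were chosen after seeing the data. No result past the threshold changed direction, while Anxa2 1437691_at in bTC3 (0.05 with all arrays) was -0.12 without GW8510 replicate 3 and Anxa1 in aTC1 (-0.02) was 0.05 without GW8510 replicate 3, neither past it. The members' count between untreated lines was 6, was 3 of 7 with 1 probe set per gene, which has fewer to count, and lay between 5 and 7 when single arrays were left out. The other family counts lay between 8 and 12 in aTC1 (main value 9), between 9 and 14 in bTC3 (13) and between 9 and 11 for the difference between lines (9). With the replicate block the 4 counts were 6, 10, 13 and 10. The values gave no sign that the replicate numbers pair the arrays, though they cannot settle how the samples were matched. Correlations of same-numbered deviations lay between -0.134 and 0.102, and 4 of 12 arrays correlated best with their own number. The block took the call of Lgals8 1422662_at in bTC3 (adjusted p = 0.0518) and changed none of the 4 counts by over 1.5 times. Among single probe sets, list genes and list counts, calls were lost in 31 cases and gained in 28, and 8 values moved by more than the replicate spread or 1.5 times. Fitting only the groups compared cannot give the difference between lines. Readings near 20, as for Anxa1 and Vim, have little room to show a fall.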
